A study of Rattus norvegicus with 22 samples.

Results

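A set of 9 genes of prostanoid metabolism outside the prostaglandin E2 branch were examined in rat tongue cancer: the synthases Tbxas1, Ptgis, Ptgds and Hpgds, the receptors Tbxa2r, Ptgir, Ptgdr and Ptgfr, and the receptor regulator Ptgfrn. They were chosen by gene symbol among 19167 symbols on the array, and all 9 were found. Ptgdr stood there as Ptgdrl and was found through its accession. Where a gene had several probes, as Ptgdr did with 3, the brightest over all 22 arrays was used. The 22 arrays hold 11 tissue pairs, and every pair came from a different male F344 rat of about 33 weeks. Every rat had received 4-nitroquinoline-1-oxide (4-NQO), a tongue carcinogen, at 20 ppm in drinking water for 10 weeks, and tissue was taken 23 to 26 weeks after exposure began. In each pair 1 piece was oral squamous cell carcinoma (OSCC) and the other was adjacent phenotypically normal tissue of the same tongue. In the sample titles all rats are called untreated, and the treatment of normal pieces is labelled none, whereas the protocol takes both pieces from treated rats. The protocol is followed here, so the normal pieces are carcinogen-exposed tissue and no unexposed tongue is compared here.

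Prostanoids are short-lived lipid signals made from prostaglandin H2, which the cyclooxygenases Ptgs1 and Ptgs2 produce from arachidonic acid. Terminal synthases then set which prostanoid is formed. Thromboxane synthase (Tbxas1), abundant in platelets and macrophages, yields thromboxane A2, which constricts vessels and aggregates platelets through Tbxa2r. Prostacyclin synthase (Ptgis), typical of the vessel wall, yields prostacyclin, which opposes these actions through Ptgir. Prostaglandin D2 comes from a lipocalin-type enzyme (Ptgds) and a haematopoietic enzyme (Hpgds, typical of mast cells), and signals through Ptgdr. Ptgfr binds prostaglandin F2α, and Ptgfrn is a membrane protein that lowers the binding of that ligand to its receptor.

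The values below come from 60-base probes. Those of the 4 synthases and of the thromboxane receptor are shown because the comparison of the branches rests on them, each written 5′ to 3′ with no base singled out. Each is a stretch of the messenger RNA with at least 1 reading frame free of stop codons. The array annotation (assembly rn4) places them at chr4:66676913-66677395 on the plus strand for Tbxas1, and on the minus strand at chr3:158360438-158360497 for Ptgis, chr3:3633310-3633779 for Ptgds, chr4:94611968-94615159 for Hpgds and chr7:9868333-9868392 for Tbxa2r. The spans of 483 bases for Tbxas1, 470 for Ptgds and 3192 for Hpgds are longer than the probe, as these probes map to the genome in separate blocks.
Tbxas1: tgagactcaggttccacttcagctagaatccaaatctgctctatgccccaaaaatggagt
Ptgis: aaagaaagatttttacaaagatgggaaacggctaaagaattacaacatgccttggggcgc
Ptgds: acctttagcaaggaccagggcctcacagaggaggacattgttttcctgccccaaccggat
Hpgds: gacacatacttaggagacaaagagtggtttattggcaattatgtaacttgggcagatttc
Tbxa2r: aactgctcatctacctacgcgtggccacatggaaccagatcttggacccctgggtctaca

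Levels are log2 signals relative to the 75th percentile of the same array, so 0 marks that percentile, and the levels of different probes are not set against each other. Differences are OSCC minus normal in log2 units, with the standard error (SE) of the paired limma fit over all 30367 probes. The 95% intervals of single genes come from that gene's pairwise differences alone and not from the fit. A gene was called when its Benjamini-Hochberg adjusted p over all probes was below 0.05 and it changed at least 2-fold. By this rule 4 of the 9 genes were up-regulated in OSCC (Tbxas1, Ptgir, Ptgdr and Ptgfr), 2 were down-regulated (Ptgis and Ptgds) and 3 were not called (Tbxa2r, Hpgds and Ptgfrn). Of all probes 13.8% were called, 6.86% higher and 6.97% lower. On the adjusted p alone the 9 genes gave the same counts of 4 and 2, against 44% of all probes, 16.2% higher and 27.9% lower. The median difference was 0.10 over the 9 genes and -0.24 over all probes, the latter moving between -0.44 and -0.03 with the scaling of the arrays. Tbxas1, Ptgir and Ptgfrn were well above background on all 22 arrays, and each of the 9 genes was above it on at least some. For none of the 9 did the OSCC and normal arrays lie fully apart, as they did for 1.65% of probes. Scan day differed between the tissues in 9 of the 11 pairs, and with it as a further term none of the 9 genes was called.

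**Figure D1:**
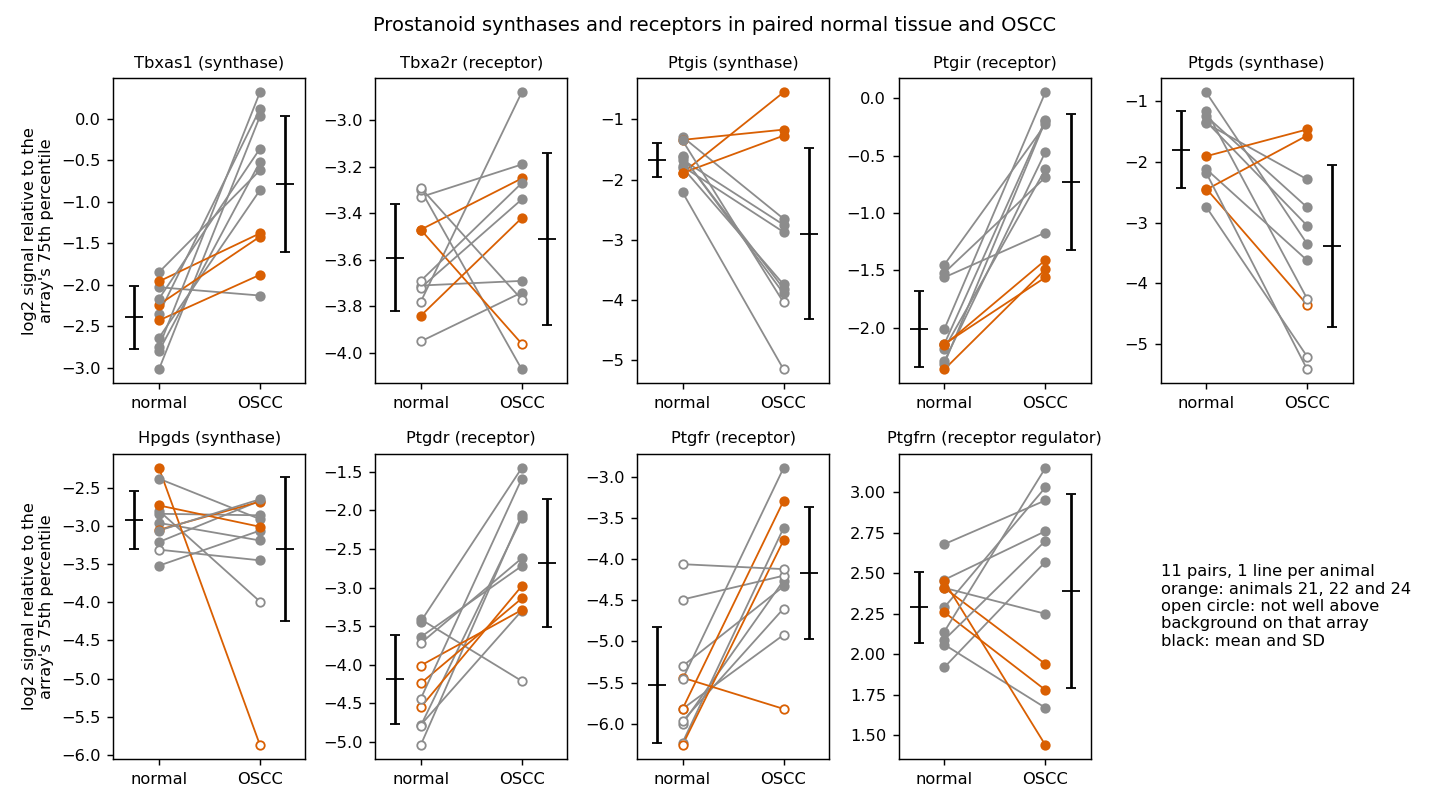
Log2 signal relative to the array's 75th percentile (vertical axis) of the 9 genes in normal tissue and OSCC, with 1 line for each of 11 animals, open circles for arrays not well above background, and the mean and SD in black. Tbxas1 is higher in OSCC in 10 animals and Ptgir in all 11, whereas Ptgis and Ptgds spread widely in OSCC, with animals 22 and 24 (orange, with 21) rising in both.

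Thromboxane synthase rose in OSCC. Tbxas1 ranged from -3.02 to -1.85 in the normal pieces, with a median of -2.35, and from -2.13 to 0.32 in the OSCC pieces, with a median of -0.62. Of the 11 OSCC pieces 9 were above the highest normal piece, and the gene was higher in OSCC than in its own normal tissue in 10 of 11 pairs, animal 17 (-0.10) being the exception. The mean rose from -2.39 ± 0.38 to -0.79 ± 0.82 (SD, n = 11), a difference of 1.59 (SE 0.30), or 3.02-fold (limma, adjusted p = 0.0017). The largest changes were 3.08 in animal 25 and 3.04 in animal 11.

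The thromboxane receptor was not called. Tbxa2r ranged from -3.95 to -3.29 in the normal pieces, with a median of -3.69, and from -4.07 to -2.88 in the OSCC pieces, with a median of -3.42. Of the OSCC pieces 4 were above the highest normal piece and 2 below the lowest. It was dim, with 3 normal arrays and 9 OSCC arrays well above background. Its difference was 0.09 (SE 0.15, 95% interval -0.24 to 0.42; limma, adjusted p = 0.65), and it turned to -0.10 with quantile scaling, -0.11 with scaling to the array median and -0.19 with another background correction.

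Prostacyclin synthase and the prostacyclin receptor moved in opposite directions. Ptgis ranged from -2.21 to -1.29 in the normal pieces, with a median of -1.67, and from -5.15 to -0.55 in the OSCC pieces, with a median of -2.87. In OSCC 8 pieces were below the lowest normal piece and the other 3, from animals 21, 22 and 24, were above the highest. The pairwise differences of these 3 were 0.16, 0.62 and 1.34, against -2.94 to -1.08 in the other 8. Over 11 pairs Ptgis fell by 1.22 (SE 0.38), or 2.33-fold (limma, adjusted p = 0.025). This call was lost without animal 9, 11, 13, 25 or 26 (adjusted p 0.056 to 0.058) and with slide as a random block (adjusted p = 0.059), and without animals 21, 22 and 24 the difference was -1.95.

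Ptgir, which couples to cyclic AMP formation, was higher in OSCC in all 11 pairs. Its levels were -2.36 to -1.45 in normal tissue (median -2.14) and -1.56 to 0.05 in OSCC (median -0.62), with 9 OSCC pieces above every normal one. The difference was 1.28 (SE 0.19), or 2.43-fold (limma, adjusted p = 0.00053). The smallest change, 0.39, was that of animal 17, in which Tbxas1 also did not rise.

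Of the prostaglandin D2 synthases, the lipocalin-type enzyme fell. Ptgds ranged from -2.74 to -0.86 in the normal pieces, with a median of -1.91, and from -5.41 to -1.47 in the OSCC pieces, with a median of -3.35. It was lower in OSCC in 9 of 11 pairs and below the lowest normal piece in 8, with rises of 0.89 in animal 22 and 0.44 in animal 24. Ptgds was well above background on all 11 normal arrays and on 7 OSCC arrays. It fell by 1.59 (SE 0.36), or 3.01-fold (limma, adjusted p = 0.0053).

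The haematopoietic enzyme was not called. Hpgds ranged from -3.52 to -2.24 in the normal pieces, with a median of -2.96, and from -5.87 to -2.65 in the OSCC pieces, with a median of -3.01. Its difference was -0.39 (SE 0.33, 95% interval -1.19 to 0.41; limma, adjusted p = 0.34), with 4 pairs higher and 7 lower. The OSCC of animal 21 stood apart, with a pairwise difference of -3.63 and a signal not above background. The other 10 pairs lay between -1.19 and 0.54, and without animal 21 the difference was -0.06 (adjusted p = 0.78).

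The prostaglandin D2 receptor was measured by 1 of its 3 probes. The brightest Ptgdr probe ranged from -5.04 to -3.41 in the normal pieces, with a median of -4.24, and from -4.21 to -1.45 in the OSCC pieces, with a median of -2.72. It was higher in 10 of 11 pairs, by 1.51 (SE 0.31) or 2.85-fold (limma, adjusted p = 0.0028), again with animal 17 as the exception (-0.80). This probe was above background on 3 normal and 10 OSCC arrays. The other Ptgdr probes were above background on no array of either tissue and give no direction. The rise thus rests on 1 probe, and why the others stayed dim was not tested.

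The prostaglandin F2α receptor was called on dim signals. Ptgfr ranged from -6.26 to -4.06 in the normal pieces, with a median of -5.82, where no array was above background, and from -5.82 to -2.89 in the OSCC pieces, with a median of -4.20, where 6 were. It was higher in 9 of 11 pairs (limma, adjusted p = 0.0051), and no fold is given because OSCC did not exceed the background limit of the normal arrays on average. Ptgfrn was bright, at 1.92 to 2.68 in normal tissue (median 2.29) and 1.44 to 3.15 in OSCC (median 2.57), where 5 pieces were above the highest normal piece and 3 below the lowest. Its difference was 0.10 (SE 0.19; limma, adjusted p = 0.68), or -0.10 with scaling to the array median, with 6 pairs higher and 5 lower.

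The thromboxane branch was then set against the others within each pair. The change of one gene was subtracted from that of another, which cancels the scaling of the arrays, and the mean over 11 pairs was put to an exact permutation test that flips the signs of pairs (two-sided, smallest possible p = 0.00098) with adjustment over 8 such comparisons. Tbxas1 exceeded Ptgis by 2.82 (SE 0.68), or 7.05-fold, in 9 of 11 pairs (exact p = 0.0059, adjusted p = 0.012). It exceeded Ptgds by 3.18 (SE 0.63), or 9.09-fold, in 10 of 11 pairs (exact p = 0.0020, adjusted p = 0.0078). It exceeded Hpgds by 1.98 (SE 0.31), or 3.95-fold, in all 11 pairs (exact p = 0.00098, adjusted p = 0.0078). These are differences between changes and not between amounts of enzyme or prostanoid. In OSCC, Ptgis was well above background on 9 arrays, Ptgds on 7 and Hpgds on 9, so the sizes of these differences are limited by the background. With another background correction (normexp) Tbxas1 exceeded Ptgis by 1.55, Ptgds by 1.71 and Hpgds by 1.21. The values of single pairs for Tbxas1 minus Ptgis ran from -0.52 to 5.98, the lowest being animal 24.

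Among the receptors, that of thromboxane changed less than that of prostacyclin. The change of Tbxa2r was below that of Ptgir in 10 of 11 pairs (difference -1.20, SE 0.26, exact p = 0.0039, adjusted p = 0.010). It was below that of the brightest Ptgdr probe in 10 of 11 pairs as well (difference -1.42, SE 0.44, exact p = 0.012, adjusted p = 0.019). In both comparisons the exception was animal 17. As Tbxa2r was above background on 3 of 11 normal arrays, and this Ptgdr probe on as many, their own changes are limited by the background, and so are these differences.

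Among the prostacyclin and prostaglandin D2 synthases, no difference passed the test. Ptgis minus Ptgds was 0.37 (SE 0.30, 95% interval -0.29 to 1.03; exact permutation adjusted p = 0.25). Ptgis minus Hpgds was -0.84 (SE 0.64, interval -2.26 to 0.59; exact permutation adjusted p = 0.25), and -1.30 without animal 21 (adjusted p = 0.038). Hpgds minus Ptgds was 1.20 (SE 0.52, interval 0.04 to 2.37; exact permutation adjusted p = 0.062), and it passed without animal 21 (adjusted p = 0.025) or 22 (adjusted p = 0.044).

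**Figure D2:**
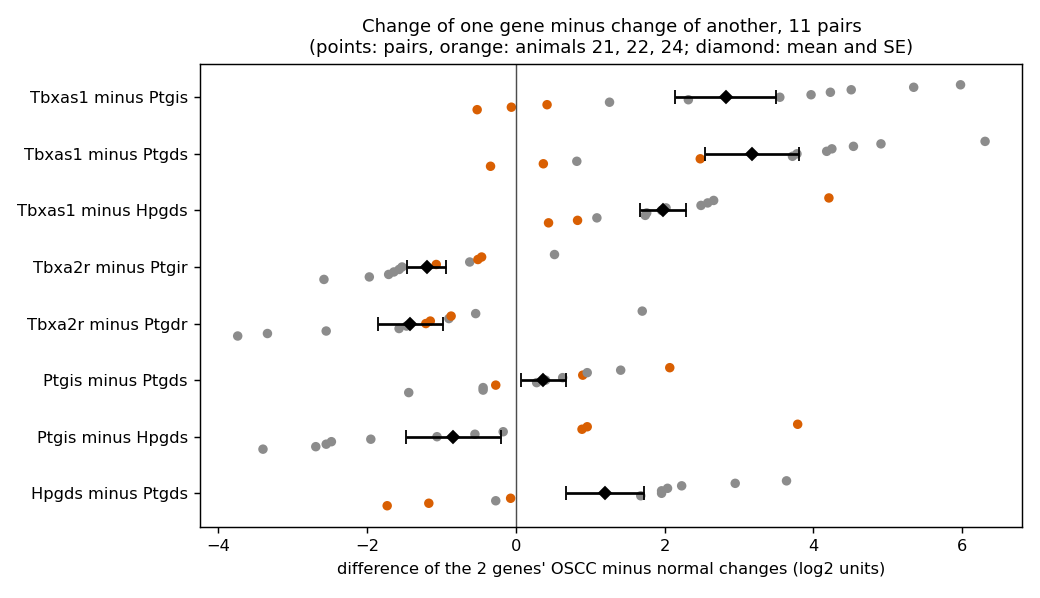
Difference between the OSCC minus normal changes of 2 genes (horizontal axis, log2 units) for 8 comparisons, with 1 point for each of 11 pairs (orange for animals 21, 22 and 24) and a diamond with the mean and SE. The 3 comparisons of Tbxas1 with another synthase lie mostly above 0, and Tbxa2r minus Ptgir lies below 0 in 10 of 11 pairs.

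Pair by pair, the synthases followed different patterns. In animals 4, 9, 11, 13, 16, 25 and 26, Tbxas1 was higher in OSCC by 1.23 to 3.08 and the Ptgis difference was -2.94 to -1.08. In animals 21, 22 and 24, Tbxas1 was higher by 0.55 to 0.82 and Ptgis was higher as well. Animal 17 had no higher level of any of the 4 synthases, with -0.10 for Tbxas1, -1.36 for Ptgis, -0.92 for Ptgds and -1.19 for Hpgds. Over 11 pairs the changes of Tbxas1 and Ptgis had Pearson's r = -0.67 (permutation p = 0.024, adjusted over 6 relations 0.073) and Spearman's rho = -0.65 (permutation p = 0.037, adjusted 0.11). Without the 2 pairs farthest from the median of Tbxas1, r was -0.82, and within the 9 pairs whose arrays were scanned on different days it was -0.66. The Ptgis values left a gap of 29.0% of their range between the 8 falling and the 3 rising pairs. Tbxas1 and Hpgds had r = 0.74 over 10 pairs (animal 21 left out as separate; permutation p = 0.014, adjusted 0.073) and rho = 0.76 (adjusted 0.088), falling to r = 0.47 without animals 17 and 25. The remaining 4 relations, computed in the larger cluster of pairs, had r between -0.36 and 0.28 (adjusted permutation p 0.67 to 0.77) and rho between -0.35 and 0.18 (0.66 to 0.99). Without the 2 pairs farthest from the median their r lay between -0.55 and 0.76. No relation passed adjustment.

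**Figure D3:**
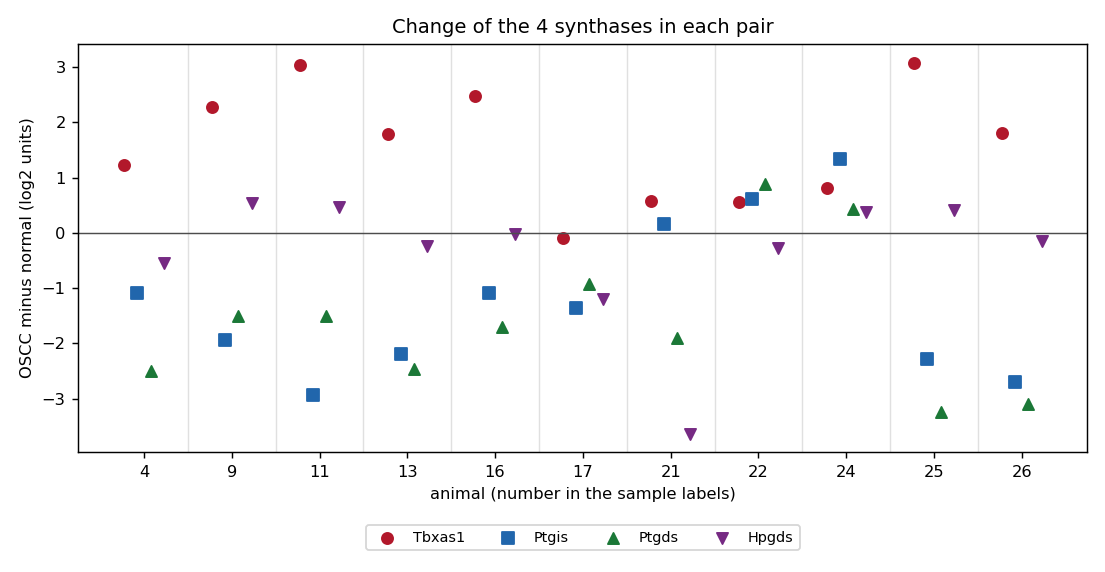
OSCC minus normal change (vertical axis, log2 units) of the 4 synthases in each of the 11 animals (horizontal axis). Tbxas1 is above the other 3 in 9 animals, and in animals 22 and 24 it is below Ptgis.

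The genes whose changes followed each synthase most closely over the 11 pairs were listed among 9566 symbols (9565 for Tbxas1) well above background on every array. For Tbxas1 they were Myo1f (r = 0.98), a myosin of leukocytes, Nrros (r = 0.98), a protein of myeloid cells and microglia, and Igsf7 l1 (r = 0.97). For Ptgis they were the kinase gene Rps6ka5 (r = 0.99), Cisd1 (r = 0.99), which encodes a protein of the outer mitochondrial membrane, and the RNA-binding protein gene Rbm38 (r = 0.98). For Ptgds they were Znf710 (r = 0.97), Rhot1 (r = 0.96), which acts in mitochondrial transport, and Wfs1 (r = 0.96), a protein of the endoplasmic reticulum. For Hpgds they were Stard13 (r = 0.92), the RNA helicase gene Ddx5 (r = 0.89) and Srpx (r = 0.89). Each was picked as the highest among so many over 11 points, so the values are descriptive. A high correlation did not require a mean change of like size. Myo1f differed by 1.38 (limma, adjusted p = 0.0045) and Wfs1 by -1.64 (0.00071), but Nrros by 0.25 (0.20) and Rhot1 by -0.03 (0.86). For the Hpgds list the rank correlations were lower, at 0.62 to 0.84.

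Marker genes of some cell types moved with these changes, and those of others did not. In whole tissue, fewer cells of a type and less RNA per cell cannot be told apart. For each list the linear signals were summed in units of the array's 75th percentile. Macrophage markers were called higher for 8 of 11 genes and lower for none, and their sum was 17.1 to 39.7 in normal tissue and 27.0 to 88.0 in OSCC. Its log2 change was greatest in animals 11 (2.34) and 25 (1.95), which also had the largest Tbxas1 changes, and was -0.09 in animal 17. Fibroblast markers, called higher for 6 of 9 genes with sums of 56.1 to 96.9 and 50.8 to 451, had the same extremes, with 2.72 in animal 11, 2.52 in animal 25 and -0.93 in animal 17. Of the platelet and megakaryocyte markers 2 of 7 were called higher, Pf4 and Ppbp, with sums of 2.54 to 4.98 and 2.63 to 13.6. Of the others Gp1ba and Gp9 were above background on no array, Treml1 on 5 OSCC arrays, Gp5 on 2 normal and 8 OSCC arrays and Gp1bb on all 22, and Itga2b and Gp6 were not found on the array. The log2 change of the platelet and megakaryocyte sum was 2.30 in animal 25 and 1.83 in animal 11, but also 1.95 in animal 17, where Tbxas1 did not rise. The part of macrophages, fibroblasts and platelets in the Tbxas1 result was not tested.

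Skeletal muscle markers moved with Ptgis. Of 12 genes 6 were called lower and 1 higher, and the sum was 1260 to 2600 in normal tissue and 76.1 to 1000 in 8 OSCC pieces. In the OSCC of animals 21, 22 and 24 it was 2870, 2260 and 2710, above the normal piece of the same animal, and these were the pairs in which Ptgis rose. Of the markers of the vessel wall, which is known for prostacyclin, none of 10 endothelial genes was called, with sums of 13.0 to 18.4 in normal tissue and 6.04 to 18.6 in OSCC. On the limma adjusted p alone Pecam1 (-0.48, 0.010), Vwf (-0.64, 0.019) and Kdr (-0.39, 0.040) were lower. No other gene of that list passed, and 27.9% of all probes were lower on this measure. Of 10 smooth muscle and pericyte genes 3 were called lower, with sums of 24.8 to 43.4 and 17.3 to 45.5, and Myocd was above background on no array. Their part in the Ptgis result was not tested.

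Markers beside the prostaglandin D2 synthases changed as well. Schwann cell markers were called lower for 6 of 7 genes, with sums of 15.3 to 25.4 in normal tissue and 2.52 to 28.6 in OSCC. The change of their sum was highest in animals 24 (0.47) and 22 (-0.37), those in which Ptgds rose. In these animals Ptgis and the skeletal muscle sum rose as well, so neither list is tied to 1 synthase alone. Mast cell markers were called lower for 4 of 11 genes, with sums of 5.62 to 14.7 and 1.18 to 21.7. Mcpt1l1 was above background on no array. The lowest mast cell sum change, -2.91, was that of animal 21, the pair with the lowest Hpgds difference. The other pairs were mixed. Animals 11 and 25 had Hpgds differences of 0.46 and 0.41 with mast cell sum changes of 1.27 and 1.29. Animal 9, with the highest Hpgds difference (0.54), had a sum change of -1.22, close to the -1.19 of animal 17, where Hpgds was lower. Neutrophil markers (5 of 9 called higher) and gland markers (8 of 10 called higher) also differed between the tissues. Neutrophil sums were 0.682 to 4.66 in normal tissue and 1.58 to 395 in OSCC. Gland sums were 2.35 to 4.48 and 2.57 to 4180, the highest being the OSCC of animal 17. Mpo, Ltf and Ngp of the neutrophil list and Pip of the gland list were above background on no array. Of 6 squamous markers 1 was called higher and 5 were not called, and the squamous keratin genes Krt5 and Krt14 were above background on all 22 arrays. Their part in these results was not tested.

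**Figure D4:**
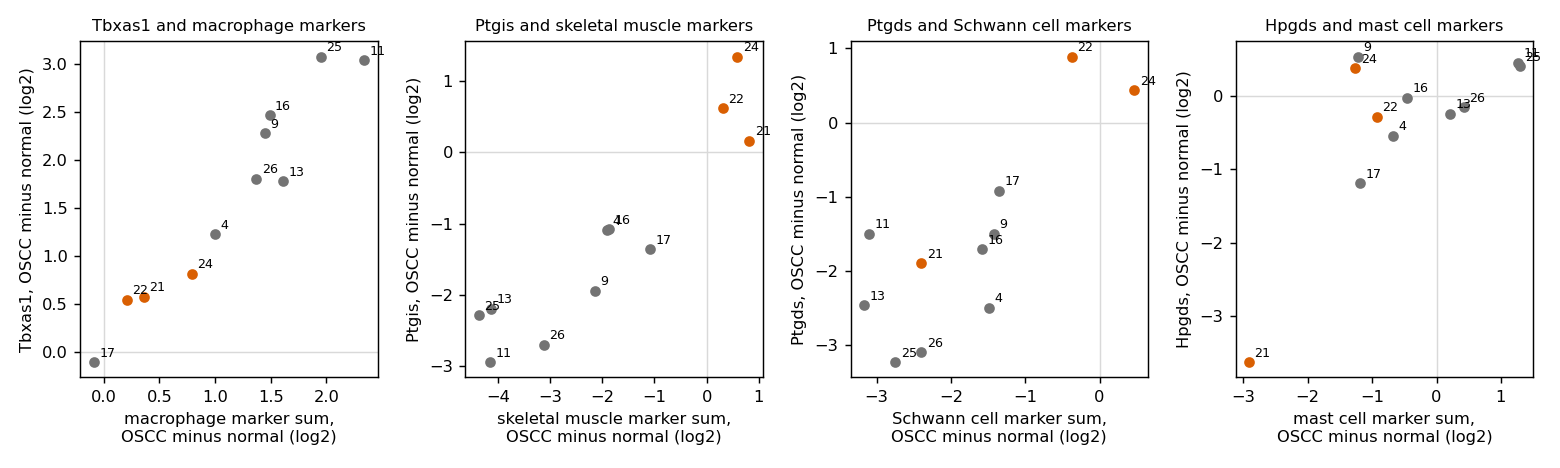
Change of each synthase (vertical axes) against the change of the summed markers of 1 cell type (horizontal axes), both OSCC minus normal in log2 units, with 1 point for each animal, numbered, and animals 21, 22 and 24 in orange. Animal 17 is lowest in both Tbxas1 and the macrophage sum, and animals 21, 22 and 24 are highest in both Ptgis and the skeletal muscle sum. Each synthase is shown with 1 chosen list only.

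The rest of the pathway was described through 19 other genes, of which 3 were called higher, 1 lower and 15 not, with a median difference of 0.11. Ptgs2, the inducible cyclooxygenase upstream of all these synthases, was above background on no normal array and on 7 OSCC arrays, with means of -5.84 ± 0.41 and -2.22 ± 2.89 (SD, n = 11). It was at least 3.14-fold higher in OSCC (limma, adjusted p = 0.0028), higher in 10 of 11 pairs. Ptgs1, the constitutive cyclooxygenase, differed by 0.80 (SE 0.32; limma, adjusted p = 0.059) and was not called. It was higher in 8 of 11 pairs, and the authors list it as overexpressed in OSCC. Their measure differs, being a ratio of values scaled to each pair's mean, with a paired t-test and no stated adjustment. Here Ptgs1 was 1.74-fold higher, with an unadjusted limma p of 0.028. The prostaglandin E2 receptor Ptger4 was at least 1.48-fold higher (limma, adjusted p = 0.00067), and Ptger2 went from -6.07 to -4.78 (limma, adjusted p = 0.0031) with no normal array above background. Ptgr2, a reductase that degrades prostaglandins, fell by 1.09 (SE 0.23; limma, adjusted p = 0.0036). Ptgdr2, the other prostaglandin D2 receptor, which the array names Gpr44, was above background on no array.

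**Figure D5:**
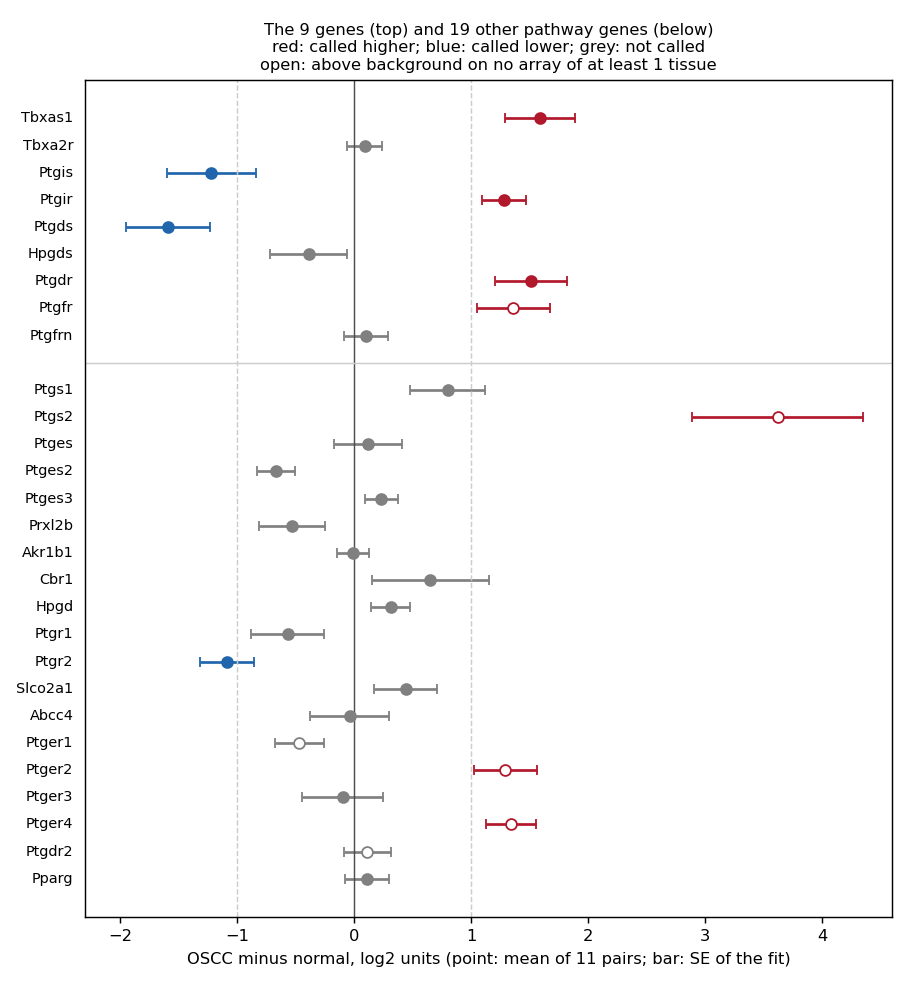
OSCC minus normal difference (horizontal axis, log2 units, mean of 11 pairs with the SE of the fit) of the 9 genes and of 19 other pathway genes, with called genes in red (higher) or blue (lower), and open symbols where no array of at least 1 tissue was above background. Among the synthases, Tbxas1 is to the right of 0 and Ptgis and Ptgds are to the left.

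Promoter sequences of 7 of the 9 genes were at hand (RefSeq, assembly GRCr8). Those of Tbxas1, the synthase that rose, and Ptgds, the one that fell most, are shown as the 250 bases before the transcription start. Capitals mark matches on either strand to 4 motifs, namely an AP-1 motif with the letters TGANTCA, a start-site motif (the TATA box) with the letters TATAAA, a motif of Sp1 (the GC box) with the letters GGGCGG and an ETS family motif with the letters GGAAGT. The Tbxas1 window is chr4:68631635-68631884 on the plus strand and the Ptgds window is chr3:28682979-28683228 on the minus strand.
Tbxas1: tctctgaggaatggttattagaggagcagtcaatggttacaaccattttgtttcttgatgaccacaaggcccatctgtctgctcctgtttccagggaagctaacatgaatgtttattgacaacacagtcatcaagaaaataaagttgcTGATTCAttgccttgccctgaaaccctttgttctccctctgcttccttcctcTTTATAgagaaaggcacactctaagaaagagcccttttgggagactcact
Ptgds: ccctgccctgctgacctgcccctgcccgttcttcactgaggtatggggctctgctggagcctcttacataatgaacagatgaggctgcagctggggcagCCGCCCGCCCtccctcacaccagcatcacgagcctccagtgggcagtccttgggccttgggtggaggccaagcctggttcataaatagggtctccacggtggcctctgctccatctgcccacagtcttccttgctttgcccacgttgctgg
The Tbxas1 window held 1 AP-1 match, starting at -102, and 1 TATA match, starting at -50 and on the opposite strand. Of 33469 promoters of the same length, 6.34% held the AP-1 letters and 12.9% the TATA letters. The Ptgds window held 2 overlapping GC box matches, starting at -151 and -147, letters that 30.5% of promoters held. None of the 7 promoters held GGAAGT, against 19.2% of all. The Tbxas1 window had no CpG and the Ptgds window had 6, with a median of 5 over all promoters.

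The arrays carry a limit that touches every difference between tissues. All 11 normal arrays were scanned on 1 day together with the OSCC arrays of animals 4 and 9, and the other 9 OSCC arrays on another day. The tissues lay on different slides, 3 for normal tissue and 4 for OSCC, and with slide as a random block Ptgis alone of the 6 lost its call. Within the day shared by both tissues, animals 4 and 9 gave 1.23 and 2.28 for Tbxas1, -1.09 and -1.94 for Ptgis, 1.55 and 1.95 for Ptgir and -2.50 and -1.50 for Ptgds. The means of the other 9 pairs were 1.56, -1.16, 1.18 and -1.50. With scan day as a term limma called none of the 9 genes and 3 of all probes, or 3 higher and 1 lower of the 9, and 9578 of all probes, at an unadjusted p below 0.05 with at least 2-fold, and the estimates were 1.76 for Tbxas1 (adjusted p = 0.11), -1.51 for Ptgis (0.25), 1.75 for Ptgir (0.085) and -2.0 for Ptgds (0.13). Only animals 4 and 9 tell tissue from day in that fit, so its estimates rest on these 2 pairs. With background corrected again from the raw signals (normexp), only Tbxas1 stayed called, at 1.09.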

How the data were processed

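The deposited scanner files of 22 1-color Agilent Rat GE 4x44K v3 arrays (11 OSCC and 11 normal pieces, paired by rat) were analysed. The authors used Feature Extraction 9.5.3.1, which subtracts background and spatial trends, so the deposited intensity (processed signal) is linear, with no scaling from array to array. A second deposited table holds this signal over the array's 75th percentile, and 99.5% of its values at or above 0.5 match the scanner files within 2%.

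Control spots and 9196 outlier spots (0.975%) were left out, the log2 intensity of a probe's spots was averaged, and the array's 75th percentile was subtracted. That percentile was 236.8 to 654.9 on normal and 338.7 to 1414 on OSCC arrays, and 48.4% to 56.12% and 52.3% to 65.5% of probes were well above background. No probe was removed for low signal. The number of arrays limits the precision, and for dim genes the signal over background. The fit was limma 3.58.1 (R 4.3.3) with animal and tissue as terms over 30367 probes. The pairing comes from 1 rat giving both pieces, whose deviations from their tissue means correlated at -0.21 to 0.24. When tested on simulated data modelled on the arrays, the fit called 197 of 200 probes that had been shifted by 3 log2 units among 30299, and 3 unshifted ones. "At least" folds are against the lowest signal well above background on each array of the dim tissue. Permutation tests used Python 3.11.15 and SciPy 1.17.1, with 100000 permutations for correlations (all permutations below 10 pairs). Pairs were treated as separate clusters where the widest gap exceeded 30% of the range.

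The 9 genes, the contrasts and the lists were chosen with earlier results of these data known. Named genes were the 9, the called genes of a list of 19 other pathway genes with Ptgs1 and Ptgs2, and the 3 genes most alike to each synthase. The naming of Ptgdr2 and of single markers was decided after their values were seen. Alternatives covered the test, scaling, background correction, a filter on dim probes, slide, scan day, outlier spots, the probe of a gene and the pairs. Quantitative PCR and methylation measurements were not analysed here.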

Additional observations from a re-analysis of the deposited data

How the results depend on the processing

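The differences of change of Tbxas1 minus Ptgis, Ptgds or Hpgds and of Tbxa2r minus Ptgir kept their direction and call in all 20 alternatives run for them, although the 2 pairs scanned on 1 day give a value and no test. Scan day as a term and slide as a random block were not among these alternatives. Without the block for animal, 4227 probes, 4 members higher and 2 lower were called, and no call among the 9 genes changed. The methods' t-test called 4248 probes at its unadjusted threshold and 4002 after Benjamini-Hochberg adjustment, with the same counts of 4 and 2 members. The normexp background correction called 1701 probes, 1 member higher, 0 lower and 1 other pathway gene, and gave -0.19 for Tbxa2r, -0.46 for Ptgis (adjusted p = 0.50), 0.82 for Ptgir (0.0033), -0.62 for Ptgds (0.24), 0.51 for Ptgdr (0.23) and 0.24 for Ptgfr (0.90). Over a range of 28 alternatives the adjusted p was 9.8e-05 to 0.11 for Tbxas1 and 0.00018 to 0.50 for Ptgis. Scan day as a term left 3 probes, 0 members in either direction and 0 other pathway genes called, with 1.76 for Tbxas1 (0.11), -1.51 for Ptgis (0.25), 1.75 for Ptgir (0.085), -2.0 for Ptgds (0.13), 1.20 for Ptgdr (0.25) and 1.79 for Ptgfr (0.11). Hpgds was at 0 there, and at 0 in the pairs scanned on 1 day, a change of sign only in rounding. Only those pairs, of animals 4 and 9, tell tissue from scan day, so the estimates with the term rest on them alone. The pairs scanned on different days left 1 member lower, with -1.16 for Ptgis (0.095). Slide as a random block left 1 member lower, with -1.26 for Ptgis (0.059). Tbxa2r was -0.10 with quantile scaling and -0.11 with the array median, which also gave -0.10 for Ptgfrn. A filter for probes above background on at least 11 arrays left 3 members higher and 1 other pathway gene called. It removed Ptgfr, Ptgs2, Ptger2 and Ptger4, all of which were called without it. The mean over probes gave 0.12 for Ptgdr (0.48) and -0.03 for Tbxa2r minus Ptgdr (0.89), because it averages in 2 probes that were above background on no array. Leaving out 1 animal at a time gave 1 to 2 members lower, -1.48 to -1.05 for Ptgis, -1.30 to -0.58 for Ptgis minus Hpgds and 0.96 to 1.5 for Hpgds minus Ptgds. Without animals 21, 22 and 24, 6924 probes were called, and Tbxa2r minus Ptgdr was -1.55 (exact permutation adjusted p = 0.062), Ptgis minus Hpgds -1.86 (0.016) and Hpgds minus Ptgds 2.02 (0.021). Apart from the filter, the mean over probes and the estimates with scan day as a term, the cause of these shifts was not tested.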
